A study of Rattus norvegicus with 6 samples.

Results

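The genes described here handle glucose, fructose and glycogen in the rat liver: Slc2a2, Gckr, Pfkfb1, Pklr, Khk, Pgm1, Gys2 and Pygl. They were taken by name, as all probes whose transcript accession maps to one of these 8 symbols, which gave 15 of the 61573 probes and 8 of the 28112 features tested. Liver RNA came from male Sprague-Dawley (Crl:CD(SD)) rats given the vehicle corn oil (n = 3) or the brominated flame retardant 2,2-bis(bromomethyl)-1,3-propanediol (BBMP) at 1000 mg/kg/day (n = 3). The rats were 5 weeks old at purchase, and the labels give the length of treatment as 28 days in the series design and as 9 weeks in the treatment protocol. Each liver was read on 1 Agilent 1-colour array. The groups lay on different slides scanned at different times, 1 slide per group, and an effect of slide or scan cannot be told apart from one of treatment.

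The liver takes up glucose after a meal, burns it through glycolysis or stores it as glycogen, and returns it to the blood between meals. Glucose crosses the hepatocyte membrane through Slc2a2 (GLUT2), and the protein of Gckr restrains its use in the hepatocyte until fructose or glucose is plentiful. Fructose enters metabolism through ketohexokinase, encoded by Khk. Liver isozymes of glycogen synthase and glycogen phosphorylase build and degrade the store, and the gene for liver pyruvate kinase is a textbook target of the glucose-sensing transcription factor ChREBP (encoded by Mlxipl), which binds a carbohydrate response element in its promoter.

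The promoters of 2 genes are shown because these genes had differences of opposite sign, Pklr in glycolysis and Gys2 in glycogen storage. Each line gives the 250 bases before the RefSeq start of the gene on GRCr8, 5′ to 3′ on the strand of the gene. Pklr lies at chr2:176841014-176841263 on the plus strand and Gys2 at chr4:177137237-177137486 on the minus strand. Capitals in Pklr mark a match to the carbohydrate response element pattern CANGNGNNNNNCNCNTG and to the TATA box TATAAA. Capitals in Gys2 mark the nuclear receptor hexamer AGGTCA.
Pklr: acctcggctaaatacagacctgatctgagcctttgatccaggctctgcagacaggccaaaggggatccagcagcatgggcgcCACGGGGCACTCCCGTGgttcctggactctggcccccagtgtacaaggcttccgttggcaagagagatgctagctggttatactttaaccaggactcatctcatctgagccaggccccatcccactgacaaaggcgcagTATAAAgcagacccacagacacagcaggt
Gys2: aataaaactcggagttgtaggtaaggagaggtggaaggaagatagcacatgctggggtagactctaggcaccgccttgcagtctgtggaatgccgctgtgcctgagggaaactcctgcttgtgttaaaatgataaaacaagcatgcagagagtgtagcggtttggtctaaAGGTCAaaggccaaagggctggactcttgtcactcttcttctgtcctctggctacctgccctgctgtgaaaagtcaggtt

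Motifs were searched on both strands in the same window of 33469 promoters. The carbohydrate response element pattern, which reads alike on both strands, was found in 0.472% of all promoters and in 1 of the 8 genes, Pklr, from 168 to 152 bases before its start. The letters of the TATA box were found in 12.9% of all promoters, and in Pklr and Pgm1. They lay 29 to 24 bases before the start of Pklr, but on the opposite strand and 166 to 161 bases before the start in Pgm1. The hexamer was found in 14.1%, and in Slc2a2, Gckr and Gys2. The E-box CACGTG was found in 5.59% and in 0 of the 8. A match describes letters in this window and is not a measured binding site.

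None of the 8 genes passed the test between BBMP and corn oil livers. Signals are given as log2 of the processed spot brightness relative to the 75th percentile of the array, so a value of 0 is that percentile and a difference of 1 is 2-fold. All 15 probes were well above background on all 6 arrays, and none was saturated. With limma across all features and Benjamini-Hochberg adjustment, 0 of 8 genes were past an adjusted p of 0.05, where 0.00711% of all features were (2 of 28112), and the smallest adjusted p among the 8 was 0.474. At an unadjusted limma p under 0.05 there were 0 of 8, against 10.8% of all features. BBMP means were lower for 5 genes and higher for 3, while 52.5% of all features were lower. The median difference was -0.13 over the 8 genes and -0.013 over all features. The 95% interval of the difference lay within 2-fold both ways for 6 genes and reached past it for Pklr and Pfkfb1.

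**Figure D1:**
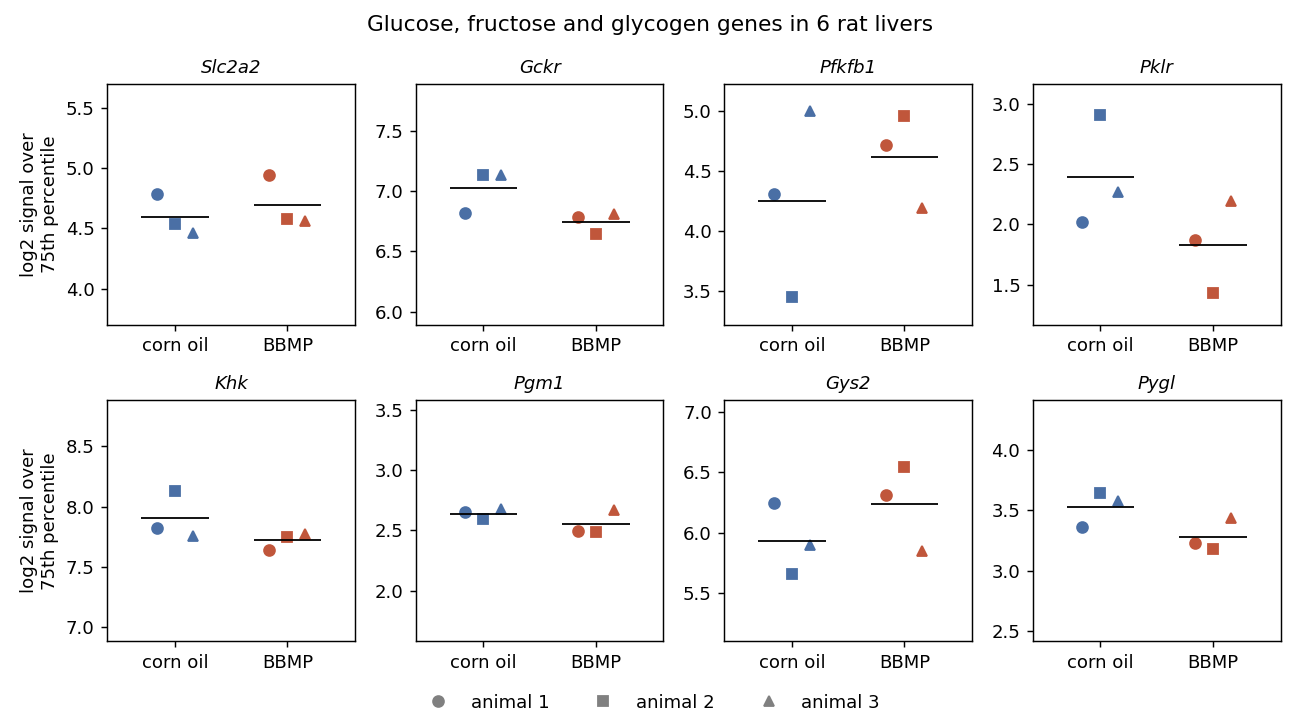
Log2 signal relative to the 75th percentile of each array (y axis, 2 log2 units high in every panel) for the main probe of each gene in 3 corn oil (blue) and 3 BBMP (red) livers, with the mean of each group as a bar and symbols for the animal number, which does not pair animals. The groups separate for Gckr alone, by 0.016, and Pfkfb1 spans 1.55 within the corn oil livers.

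Slc2a2 encodes the low-affinity glucose transporter of hepatocytes. Its main probe read 4.78, 4.53 and 4.46 in corn oil livers 1 to 3 and 4.94, 4.58 and 4.56 in BBMP livers 1 to 3. The groups overlapped, and the highest liver in each group stood apart from the other two. The difference was 0.10 ± 0.15 (SE; 95% interval -0.26 to 0.46; limma adjusted p = 0.831). The other probes gave 0.30 ± 0.18 and 0.015 ± 0.15. Without BBMP 1, the highest liver, the difference of the main probe was -0.025, so its sign rested on that liver, and leaving out each of the others gave 0.033 (corn oil 3) to 0.19 (corn oil 1).

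Gckr, which encodes a regulatory protein of hepatic glucose use, was the gene with the smallest p of the 8. It read 6.82, 7.14 and 7.13 in corn oil livers and 6.78, 6.65 and 6.81 in BBMP livers. All BBMP values lay below all corn oil values, but the highest BBMP and the lowest corn oil liver were only 0.016 apart. The difference was -0.28 ± 0.12 (SE; 95% interval -0.58 to 0.013; limma adjusted p = 0.474), a BBMP to corn oil ratio of 0.821. Gckr was 1 of 8 genes whose groups did not overlap, where 17.8% of all features did not. The groups of Gckr overlapped with normexp, quantile normalization or median scaling, where the difference stayed below 0.

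Across the 6 livers, the named genes whose signal was most like that of Gckr were Atosa (Pearson r = 0.996) and Bscl2 (r = 0.993), the gene for the lipid droplet protein seipin. They were taken from 11103 genes, of which 47 had an r over 0.95, and all points share the same 6 arrays and their scaling. Atosa differed by -0.28 ± 0.12 and Bscl2 by -0.25 ± 0.12 between the groups (limma adjusted p = 0.473 and 0.505), and Atosa by -0.14 with normexp. Both genes were picked for their likeness to Gckr, so these differences follow from the selection and add no support to that of Gckr.

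Pfkfb1 encodes the bifunctional liver enzyme that makes and removes the fructose bisphosphate activator of phosphofructokinase. Its main probe read 4.31, 3.45 and 5.00 in corn oil and 4.71, 4.95 and 4.19 in BBMP livers. The BBMP livers lay inside the range of the corn oil livers. The other probe gave nearly the same values, with extremes of 3.41 and 5.01 among corn oil livers and of 4.13 and 4.99 among BBMP livers. The difference was 0.37 ± 0.40 (SE; 95% interval -0.61 to 1.34; limma adjusted p = 0.760), with -0.033 without corn oil 2, 0.20 without BBMP 2, 0.58 without BBMP 3 and 0.74 without corn oil 3. The pooled SD within groups, 0.61, was among the largest measured: 4.12% of all features had one as large, and the median over all features was 0.18.

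Pklr encodes pyruvate kinase of liver and red cells, the last step of glycolysis, and had the largest difference of the 8 genes. Its main probe read 2.02, 2.91 and 2.27 in corn oil and 1.87, 1.43 and 2.19 in BBMP livers. Corn oil 2 was the highest and BBMP 2 the lowest, and BBMP 3 lay between corn oil 1 and corn oil 3. The difference was -0.56 ± 0.29 (SE; limma adjusted p = 0.520), a ratio of 0.676 with a 95% interval from 0.420 to 1.09. Of all features, 6.10% had a difference at least as large.

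The other probe of Pklr read 0.99, 1.76 and 0.98 in corn oil and 0.45, 0.42 and 0.94 in BBMP livers. The groups did not overlap on this probe, with 0.039 between the nearest livers. It differed by -0.64 ± 0.26 (SE; limma adjusted p = 0.471 in the fit of every probe) and was the only one of the 15 probes at an unadjusted p under 0.05, where 10.4% of all probes were. In that fit 0 of the 15 probes passed an adjusted p of 0.05, where 0.00531% of all probes did (2 of 37644), and the groups did not overlap for 2 of the 15 probes, this and that of Gckr, against 17.4% of all probes. The difference of the main probe was -0.31 without corn oil 2, -0.36 without BBMP 2 and -0.75 without corn oil 1, with a limma adjusted p from 0.437 to 0.842 over the fits that leave out 1 liver.

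Mlxipl, which encodes ChREBP, and Mlx, its partner in binding the element shown for Pklr, had differences of opposite sign, neither past the test. Mlxipl read 1.37, 1.41 and 1.19 in corn oil and 1.13, 1.20 and 0.86 in BBMP livers, a difference of -0.26 ± 0.13 (limma adjusted p = 0.514) with groups that overlapped, and without BBMP 3 the difference was -0.16. Mlx differed by 0.22 ± 0.10 (limma adjusted p = 0.490) with groups that did not overlap, but by only 0.021 with normexp. Mlxipl was at -0.34 with normexp.

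**Figure D2:**
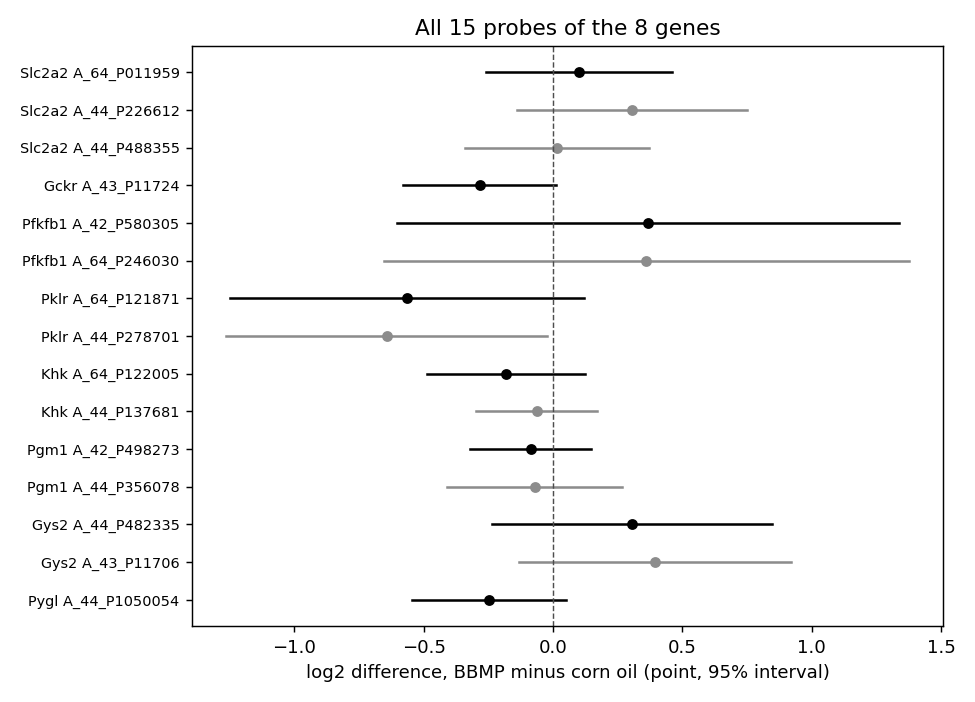
Log2 difference between BBMP and corn oil livers (point) with its 95% interval (line) for all 15 probes, with the main probe of each gene in black and other probes in grey. Probes of the same gene share a sign, and the interval of 1 probe, A_44_P278701 of Pklr, leaves out 0.

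Khk, the ketohexokinase that commits fructose to the liver, read 7.82, 8.13 and 7.76 in corn oil and 7.64, 7.75 and 7.77 in BBMP livers. Corn oil 2 stood above the other 5 livers. The difference was -0.18 ± 0.13 (SE; 95% interval -0.49 to 0.12; limma adjusted p = 0.627), and the other probe gave -0.064 ± 0.097. Without corn oil 2 the difference of the main probe was -0.069, and with normexp it was -0.0076.

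Pgm1, the phosphoglucomutase that links glucose phosphate to glycogen in both directions, varied least. It read 2.65, 2.59 and 2.67 in corn oil and 2.50, 2.48 and 2.67 in BBMP livers, with BBMP 3 among the corn oil values. The difference was -0.087 ± 0.097 (SE; 95% interval -0.32 to 0.15; limma adjusted p = 0.763), and -0.072 ± 0.14 on the other probe. It was -0.055 without BBMP 2 and -0.15 without BBMP 3. The pooled SD within groups was 0.078, and 89.7% of all features had one at least as large.

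Gys2, the liver glycogen synthase, read 6.24, 5.65 and 5.90 in corn oil and 6.31, 6.54 and 5.85 in BBMP livers. BBMP 1 and BBMP 2 were above all corn oil livers and BBMP 3 was below 2 of them. The difference was 0.31 ± 0.23 (SE; 95% interval -0.24 to 0.85; limma adjusted p = 0.646). It was 0.15 without BBMP 2, 0.17 without corn oil 2, 0.46 without corn oil 1 and 0.50 without BBMP 3. The other probe kept the same lowest and highest liver, corn oil 2 and BBMP 2, and gave 0.39 ± 0.22.

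Pygl, the liver glycogen phosphorylase that releases glucose phosphate from the store, read 3.36, 3.65 and 3.58 in corn oil and 3.23, 3.18 and 3.43 in BBMP livers. Here BBMP 3 lay above corn oil 1 and the remaining BBMP livers lay below every corn oil liver. The difference was -0.25 ± 0.12 (SE; limma adjusted p = 0.516), a ratio of 0.842 with a 95% interval from 0.685 to 1.04. Pygl had 1 probe, so no other probe bears on its value.

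The pooled SD within groups was 0.61 for Pfkfb1, 0.42 for Pklr and 0.33 for Gys2, against a median of 0.18 over all features. It was 0.19 for Slc2a2 and below that median for Gckr, Khk, Pgm1 and Pygl. Corn oil 2 was the lowest or highest of the 6 livers for 6 of the 8 genes, against 43.5% of all features, the largest share of any array. It was the highest for Gckr, Pklr, Khk and Pygl and the lowest for Gys2 and Pfkfb1. BBMP 2 was the lowest for Gckr, Pklr, Pygl and Pgm1 and the highest for Gys2, 5 of the 8 genes against 33.5% of all features. The count was 3 for corn oil 3 (26.4% of all features), 2 for BBMP 1 (29.7%) and 0 for corn oil 1 (31.0%) and BBMP 3 (36.0%). In Pklr the livers corn oil 2 and BBMP 2 were 1.48 apart on the log2 scale, and the remaining livers lay within 0.39 of each other. These are counts in 6 animals and were not tested.

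**Figure D3:**
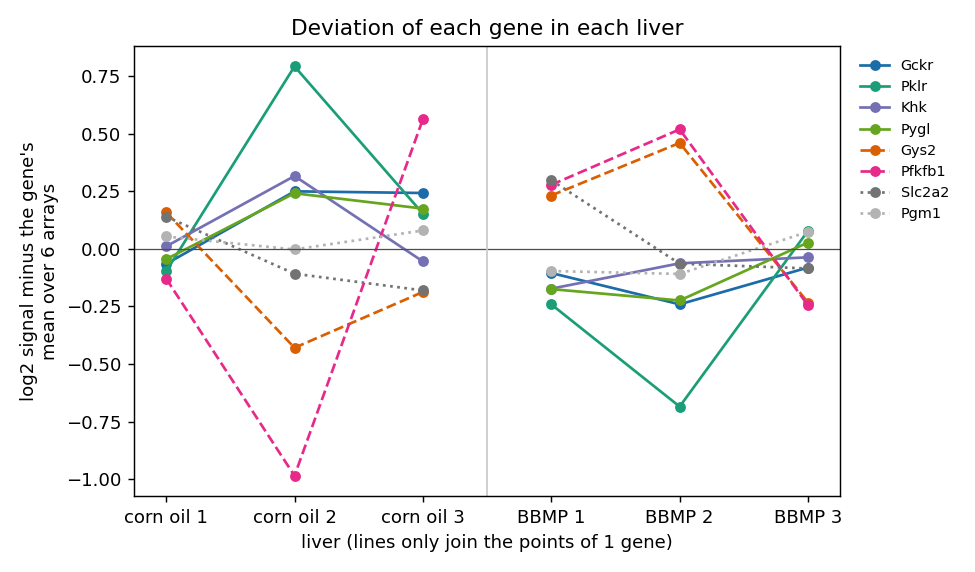
Deviation of each gene from its own mean over the 6 livers (y axis, log2 units) in each corn oil and BBMP liver (x axis), with solid lines for Gckr, Pklr, Khk and Pygl, dashed for Gys2 and Pfkfb1 and dotted for Slc2a2 and Pgm1. Solid genes are those with corn oil 2 highest and dashed genes those with it lowest, so their split in corn oil 2 follows from the grouping. They also lie on opposite sides of 0 in BBMP 1 and BBMP 2. The deviations of a gene sum to 0 over the 6 livers, so the grouping favours this split too. The dotted genes lie below 0 in corn oil 2 and BBMP 2.

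BBMP 3 stood nearer to the corn oil livers than BBMP 1 and BBMP 2 did for several of the genes. Without it, the groups did not overlap for 6 of the 8, 5 lower and Gys2 higher, where 28.9% of all features did not. Without corn oil 1 the number was 4, where 31.5% of all features did not, and without corn oil 3 it was 2 (30.9%). It was 1 without corn oil 2 (24.3% of all features), BBMP 1 (26.4%) or BBMP 2 (28.7%). None of the 8 passed an adjusted p of 0.05 in any of these fits. Their smallest unadjusted limma p there was 0.014, for Gckr without corn oil 1 (adjusted p = 0.384).

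The other genes of hepatic carbohydrate handling were counted in lists by role. Of 92 listed genes 86 were tested, 37 with a higher and 49 with a lower BBMP mean, and the median difference was -0.043. Under limma 0 rose and 0 fell at an adjusted p of 0.05, 6 were at an unadjusted p under 0.05 (6.98%, against 10.8% of all features) and the groups of 12 did not overlap (14.0%, against 17.8%).

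**Figure D4:**
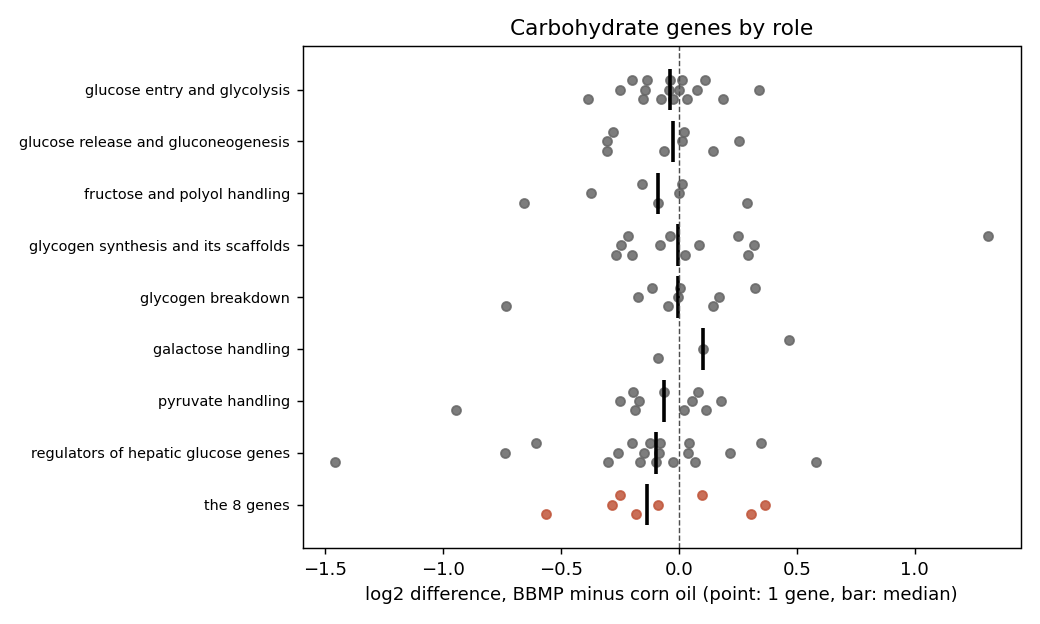
Log2 difference between BBMP and corn oil livers (x axis) for each tested gene (points) in 8 lists by role and for the 8 genes of this account (red), with the median as a black bar. List medians lie between -0.097 and 0.10, and among the genes drawn Ppp1r3c on the right and Foxa2 on the left lie farthest from 0. Phka1, not well above background in BBMP livers, is drawn at its measured difference.

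Among glycogen genes the outlying value was that of Ppp1r3c, a scaffold that brings a protein phosphatase to glycogen and so favours its synthesis. It read 4.63, 4.22 and 4.37 in corn oil and 5.28, 6.80 and 5.08 in BBMP livers. All BBMP livers were above all corn oil livers, and BBMP 2 was again the extreme. The difference was 1.31 ± 0.45 (SE; limma adjusted p = 0.421), a ratio of 2.48, and it was 0.77 without BBMP 2. In the synthesis list of 12 tested genes 6 were higher and 6 lower, with Ppp1r3d, another such scaffold, at -0.27 ± 0.14 and Pgm2l1 at -0.20 ± 0.13, or 0.051 as the mean of its probes.

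In the breakdown list 4 of 9 tested genes were higher and 5 lower. Phka1, the muscle regulatory subunit of phosphorylase kinase, was dim. Its probe cleared background on all 3 corn oil arrays and on 0 BBMP arrays, so it was tested through the corn oil group alone, and its p and its place in the counts above are no support for a difference. The measured means were -5.49 in BBMP and -4.76 in corn oil livers (limma adjusted p = 0.393), and with normexp the difference was only -0.088. Against the background limit the measured signal was 1.44-fold lower in BBMP livers. That figure sets the corn oil mean against, per BBMP array, the higher of its own signal and the lowest signal well above background. It makes no allowance for the spread and is no minimum for a change. Phkg2, the catalytic subunit of that kinase in liver, differed by 0.14 ± 0.099 and by 0.053 with normexp. Stbd1, which binds glycogen, differed by 0.33 ± 0.27, from 0.072 without corn oil 2 to 0.53 without corn oil 1.

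In the glycolysis list 7 of 17 tested genes were higher and 10 lower. The genes with the smallest p were the hexokinase Hk2 (-0.38 ± 0.20), the glucose phosphate isomerase Gpi (-0.25 ± 0.14) and the phosphoglycerate kinase Pgk1 (-0.15 ± 0.092). Limma adjusted p lay between 0.522 and 0.583 for these. Hk2 was at -0.094 with normexp and -0.19 without corn oil 2, and with the mean of probes Gpi was at -0.16 and Pgk1 at -0.087. With normexp Gpi was at -0.32 and Pgk1 at -0.17. Pgk1 was among the 2 of the 17 genes whose groups did not overlap, where 17.8% of all features did not.

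For glucose release and gluconeogenesis 4 of 8 genes were higher and 4 lower. The pyruvate carboxylase Pc, the entry step of gluconeogenesis, read 8.14, 8.28 and 8.32 in corn oil and 8.11, 7.88 and 7.84 in BBMP livers. Its groups did not overlap, and it differed by -0.30 ± 0.11 (SE; limma adjusted p = 0.441). The glucose phosphatase gene G6pc1 differed by -0.28 ± 0.16, and by -0.12 without BBMP 1 and -0.16 with normexp. Pck1 differed by -0.30 ± 0.22, and by -0.043 without BBMP 3 and -0.46 without BBMP 2.

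Among fructose and polyol genes, 3 of 7 higher and 4 lower, Tkfc, the kinase that acts on glyceraldehyde after Khk and aldolase, differed by -0.37 ± 0.16 (limma adjusted p = 0.471). It read 1.86 to 2.01 in corn oil livers and 1.36, 1.41 and 1.88 in BBMP livers, with BBMP 3 among the corn oil values as for Pgm1. The fructose transporter gene Slc2a5 differed by -0.66 ± 0.46, from -0.22 without corn oil 2 to -1.11 without corn oil 3. The aldose reductase Akr1b1 differed by 0.29 ± 0.22, from 0.13 without corn oil 2 to 0.47 without BBMP 2.

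In the galactose list 2 of 3 genes were higher and 1 lower. Galt, the uridylyltransferase that turns galactose phosphate into a substrate of glycogen synthesis, differed by 0.47 ± 0.18 (limma adjusted p = 0.448), the galactokinase gene Galk1 by 0.10 ± 0.13 (0.037 without corn oil 2 and 0.20 without corn oil 1) and the mutarotase gene Galm by -0.088 ± 0.14. The sign of Galm turned without corn oil 1, where it was 0.034, and with normexp.

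In the pyruvate list 5 of 11 genes were higher and 6 lower. Pdk4, a kinase that shuts off pyruvate dehydrogenase in the fasted liver, had the smallest p of all lists. It read 0.21, 0.55 and 0.37 in corn oil and -0.35, -0.84 and -0.52 in BBMP livers. The nearest livers of the groups were 0.56 apart, and the difference was -0.95 ± 0.16 (SE; limma adjusted p = 0.314). For Pdk4 the difference was -0.68 with normexp, and from -1.06 without BBMP 1 to -0.81 without BBMP 2. The carrier subunit Mpc1, which brings pyruvate into mitochondria, differed by -0.19 ± 0.089 and the phosphatase Pdp2, which reverses Pdk4 and its relatives, by -0.17 ± 0.10. The nearest livers of the groups were 0.10 apart for Mpc1 but only 0.0014 apart for Pdp2, which was at -0.11 without corn oil 1.

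In the list of regulators 6 of 19 tested genes were higher and 13 lower, with a median of -0.097. Foxa2, a hepatocyte transcription factor active in fasting, read 2.62, 3.94 and 4.01 in corn oil and 2.42, 1.25 and 2.52 in BBMP livers. All BBMP livers were below corn oil 1, which itself lay nearer to BBMP 1 and BBMP 3 than to the other corn oil livers. The difference was -1.46 ± 0.49 (SE; limma adjusted p = 0.417), from -1.91 without corn oil 1 to -1.05 without BBMP 2.

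The tissue label was borne out by all 10 hepatocyte markers, which were well above background on every array. Their summed linear signal overlapped between the groups, 5301 to 5851 times the 75th percentile in corn oil and 4977 to 5679 times in BBMP livers. Stellate cell and fibroblast markers (7 of 7 well above background on every array) summed to 35.0 to 39.9 in corn oil and 27.2 to 31.8 in BBMP livers, without overlap, and their part in the values above was not tested. Macrophage markers summed to 49.8 to 82.1 and 65.7 to 82.7, with overlap. Pancreatic acinar markers summed to 0.396 to 0.455 and 0.458 to 0.493, without overlap, with 3 of 5 (Cela1, Pnlip and Prss1) not well above background on any array. The sums of the other 8 cell type lists overlapped. In whole liver, fewer cells of a type and less RNA per cell cannot be told apart.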

How the data were processed

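Liver RNA of 6 rats was hybridised to Agilent design 035170 with Cy3, 1 array per animal. Per the file headers, Feature Extraction 10.7.1.1 subtracted background, and the deposited scanner files hold linear intensity with no scaling between arrays. The value table of the authors is in scaled intensity, each column being the processed signal divided by a constant near that array's 75th percentile (449.4 to 567.9), with medians from 0.0965 to 0.0998. Per the labels, groups came from the treatment field. The labels do not say more of how the table was scaled.

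Control spots (1319) and 84 spike-in probes were left out. Accessions were matched to symbols through RefSeq (GRCr8), which named 44.6% of probes. The log2 processed signal minus the log2 75th percentile (450.1 to 570.4 intensity units) was tested with limma 3.58.1 in R 4.3.3, two-sided, over 28112 features, each well above background on all 3 arrays of a group, a gene being its brightest such probe. Per array 60.1% to 64.4% of probes were well above background. Precision is limited by having 6 arrays. Array correlations were 0.986 to 0.992. Outlier spots, at most 21 per array, were left out. The fit was tested on simulated data. Tables and figures used Python 3.11.15.

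Named in the text were the 8 genes, the 3 genes of each list with the smallest p, and, for a gene whose groups did not overlap, the 2 genes most correlated with it. Of the genes first listed, 2 are not reported here and were left out of the list counts. The genes and lists were chosen with earlier results of these data known. Alternatives were normexp (offset 50, on the median spot signal, since the files carried no mean spot signal), quantile and median scaling, testing without a filter or with one on all 6 arrays, every probe, the mean of probes, trended robust moderation, an unmoderated unequal-variance test, the value table, a block for the replicate number and leaving out each array. A slide block could not be fitted because each slide held 1 group.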

Additional observations from a re-analysis of the deposited data

How the results depend on the processing

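Of 28112 features 2 passed, 0 with normexp, the filter on all 6 arrays, the unmoderated test and the replicate block, 1 without a filter, and 0 to 4 leaving out 1 array (0 without corn oil 3, 4 without corn oil 2). Those with 0 had 3252, 2835, 2034, 3235 and, without corn oil 3, 3002 features at an unadjusted p under 0.05. The cause was not tested. With the all-array filter, which leaves out features not well above background on every array, 26581 features were tested. Of the 8 genes 0 passed, and of the listed pathway genes 0, under all 17 alternatives. The number of the 8 whose groups did not overlap was 1, went to 0 with normexp, quantile normalization and median scaling, and was 1 to 6 leaving out 1 array. Their median difference was -0.13, moved to -0.054 with normexp, and was -0.18 to -0.090 leaving out 1 array. Normexp brought Slc2a2, Gckr, Pklr and Khk nearer to 0 and moved Pfkfb1 (0.50), Pgm1 (-0.10), Gys2 (0.37) and Pygl (-0.29) farther from it. Listed genes also moved both ways, for example Gpi, Mlxipl, Tkfc and Galt farther from 0 and Hk2, Mlx, G6pc1 and Phkg2 nearer. The difference of Pgm2l1 turned to 0.051 with the mean of its probes and that of Galm to 0.060 with normexp. Leaving out 1 array gave -0.033 to 0.74 for Pfkfb1, -0.025 to 0.19 for Slc2a2 and -0.18 to 0.034 for Galm, whose signs turned without corn oil 2, BBMP 1 and corn oil 1. For the other named genes the sign was the same in every alternative run. With the replicate number as a block 0 of 28112 features passed; the deviations of animals with the same number correlated at 0.089, 0.016 and 0.072, and no label ties those animals to each other. All 15 probes of the 8 genes were well above background on every array, while Phka1 was not well above background in BBMP livers.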
